A study of Mus musculus with 47 samples.

Results

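A set of 8 genes of hepatic glucose output, glycogen metabolism and the fasting response were followed across 8 groups of mouse livers. They were taken by gene symbol from the platform annotation of the deposited value table. All 8 genes had a probeset, 1 each, among 9815 transcripts tested. The table holds a part of the genome: of 6864 measured genes with a chromosome, 98.2% lie on chromosomes 1 and 10 to 16, and each share of all transcripts given here is over that part. G6pc, Ugp2, Gcgr and Igfbp1 lie on chromosome 11, Pygl and Lpin1 on chromosome 12 and Fbp1 and Ppp1r3g on chromosome 13 (GRCm38.p6).

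The livers came from 47 female SKH:QS hairless mice, an albino immune-competent colony, and 1 Affymetrix Mouse Gene 1.0 ST array was made per mouse. The mice were 8 weeks old when treatment began and received 30 weekly treatments over 36 weeks. Control-UVR and Control+UVR had no sunscreen, ZnO-UVR and ZnO+UVR a product with ZnO nanoparticles, TiO2-UVR and TiO2+UVR a product with TiO2 nanoparticles and organic filters, and Organic-UVR and Organic+UVR a product with organic filters alone. The +UVR groups received 29 kJ/m2 of UVR per treatment and the -UVR groups none. ZnO+UVR had 5 arrays and each other group 6. All mice wore collars during treatment, were washed afterwards, ate ad libitum and were anaesthetised with xylazine and ketamine before the liver was taken. The time of day and the time since the last meal are not given in the sources used here. The labels state individual housing and the study's methods 1 cage per group, and with 1 cage per group, cage and treatment cannot be told apart. The question of the comparisons was which liver transcripts differ from untreated mice after long-term sunscreen use with or without UVR.

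Between meals the liver keeps blood glucose up by breaking down glycogen and by making glucose anew. Glucagon acts through its receptor, encoded by Gcgr, to raise cyclic AMP and to activate glycogen phosphorylase, encoded by Pygl. New glucose passes through fructose-1,6-bisphosphatase (Fbp1), and glucose-6-phosphatase (G6pc) carries out the last step before release. Insulin opposes these steps after a meal, and it lowers G6pc and the secreted binding protein gene Igfbp1 by keeping FOXO factors out of the nucleus. Ugp2 makes UDP-glucose, the building block of glycogen, Ppp1r3g encodes a subunit that brings protein phosphatase 1 to glycogen, and Lpin1 encodes a phosphatidate phosphatase and coactivator that rises in the fasted liver.

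1 array stood apart. When each array was regressed on the average array, the slope for Organic-UVR replicate 1 was 0.772 and that for the others 0.895 to 1.07. A slope of 1 marks average contrast between bright and dim transcripts, and on an array with a lower slope bright transcripts tend to read lower and dim ones higher. Its 3 measured hepatocyte markers (Cps1, Ahsg and Apoh, of 17 listed) averaged 12.1 on the log2 scale against 12.41 to 12.83 on the other arrays. The 3 measured bile duct markers (Krt19, Krt7 and Sox9) averaged 5.347 against 4.622 to 5.155, and the fat marker Adipoq measured 4.101 against 2.939 to 4.052. The measured Kupffer cell, endothelial, stellate cell, lymphocyte, pancreas and muscle markers all lay within the range of the other arrays. On this array G6pc (6.59), Fbp1 (9.02), Pygl (9.18), Ugp2 (9.22) and Igfbp1 (5.82) each had their lowest value of all 47 livers, and Gcgr (7.48) and Lpin1 (6.44) the second lowest. Ppp1r3g, at 5.93, lay within the range of the other Organic-UVR livers. In mean level over all livers Cps1, Ahsg and Apoh each lay above at least 99.8% of transcripts. Sox9 lay above 63.1%, Krt7 above 36.3%, Krt19 above 29.3% and Adipoq above 13.1%. The part of the slope, RNA quality or cell mix in these values was not tested. In whole liver, fewer cells of a type and less RNA per cell cannot be told apart.

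**Figure D1:**
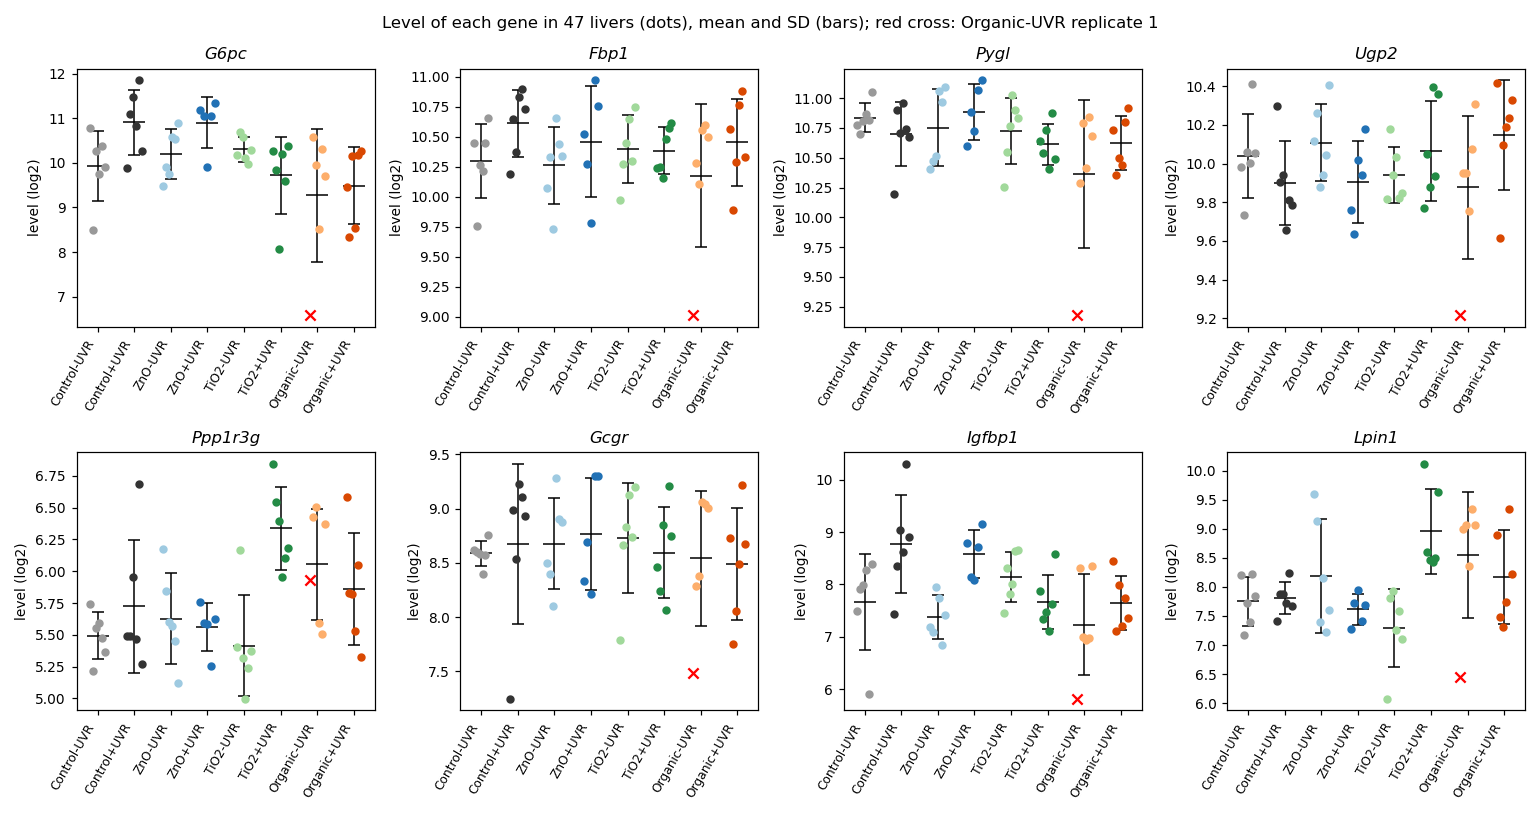
Log2 level of each of the 8 genes (vertical axis, arbitrary RMA units) in every liver of the 8 groups (horizontal axis); bars are the group mean and SD, and the red cross is Organic-UVR replicate 1. Ppp1r3g and Lpin1 sit highest in TiO2+UVR, G6pc and Igfbp1 have their highest means in Control+UVR and ZnO+UVR, and the red cross lies at or near the bottom for every gene but Ppp1r3g.

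Across the 8 groups, Ppp1r3g and Igfbp1 differed and the other 6 genes did not pass the test. limma's F test gave Ppp1r3g an adjusted p of 0.0207 and Igfbp1 an adjusted p of 0.0473. G6pc (adjusted p = 0.144), Lpin1 (adjusted p = 0.157) and Pygl (adjusted p = 0.401) followed, and Fbp1, Ugp2 and Gcgr had adjusted p of 0.66, 0.798 and 0.946 by limma. That is 2 of 8 genes called, where 1.93% of all transcripts were called. Without Organic-UVR replicate 1 the adjusted p of this F test was 0.00859 for Lpin1, 0.0122 for Ppp1r3g, 0.0611 for Igfbp1 and 0.106 for G6pc. Called here and throughout means a Benjamini-Hochberg adjusted p under 0.1 over all 9815 transcripts in limma, the study's false discovery rate.

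The glycogen targeting subunit gene Ppp1r3g rose in TiO2+UVR. It was the dimmest of the 8 genes, with a mean level of 5.76 over all livers against a median of 5.24 for all transcripts. That level lay above 61.1% of transcripts, where the other members lay above 86.5% (Igfbp1) to 98% (Pygl). Ppp1r3g measured 5.95 in the lowest, 6.29 in the median and 6.84 in the highest liver of TiO2+UVR. In Control-UVR the values were 5.22, 5.52 and 5.75, so the groups did not overlap. In TiO2-UVR they were 5.00, 5.35 and 6.16, and the highest of these livers, replicate 2, reached into the range of TiO2+UVR. The group means were 6.34 ± 0.33 (SD, n = 6) in TiO2+UVR, 5.49 ± 0.18 (SD, n = 6) in Control-UVR and 5.42 ± 0.39 (SD, n = 6) in TiO2-UVR.

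Against Control-UVR the log2 difference of Ppp1r3g was 0.85 (SE 0.19, adjusted p = 0.0242, limma), a 1.80-fold higher level. It was the only member called in TiO2+UVR against Control-UVR, where 0.693% of all transcripts were called. Against TiO2-UVR the log2 difference was 0.92 (SE 0.19, adjusted p = 0.00683, limma), and this call held with each of the 47 arrays left out in turn. The comparison within the TiO2 product was chosen after the values were seen. The call against Control-UVR was lost without Control-UVR replicate 2, at 0.75 with an adjusted p of 0.119.

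Ppp1r3g was next highest in Organic-UVR, at 6.05 ± 0.44 (SD, n = 6), with livers from 5.51 to 6.50 around a median of 6.15. Its difference from Control-UVR there was 0.56 (SE 0.19, adjusted p = 0.112, limma). In Organic+UVR it measured 5.86 ± 0.44 (SD, n = 6), a difference of 0.36 (SE 0.19, adjusted p = 0.308). Control+UVR, ZnO-UVR and ZnO+UVR had means of 5.73, 5.63 and 5.56. A single Control+UVR liver, replicate 5, reached 6.69. The order of the means ran from TiO2+UVR to TiO2-UVR, and the largest step between neighbours, 0.284 from TiO2+UVR to Organic-UVR, was smaller than the SD within groups of 0.377.

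The fasting-induced gene Lpin1 stood beside Ppp1r3g in TiO2+UVR. Its livers there measured 8.44 at the lowest, 8.55 at the median and 10.12 at the highest. Replicates 1 (10.12) and 6 (9.63) lay above the other 4, which fell between 8.44 and 8.60. In TiO2-UVR the values were 6.07, 7.42 and 7.94, and in Control-UVR 7.17, 7.78 and 8.22. TiO2+UVR overlapped with neither group.

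Lpin1 rose by a log2 difference of 1.66 (SE 0.40, adjusted p = 0.0347, limma) in TiO2+UVR against TiO2-UVR, a 3.17-fold difference. Ppp1r3g and Lpin1 were the 2 members called in that comparison, where 0.652% of all transcripts were called. The Lpin1 call was lost without TiO2-UVR replicate 1 (1.39, adjusted p = 0.234), TiO2+UVR replicate 1 (1.39, adjusted p = 0.133) or TiO2+UVR replicate 6 (1.52, adjusted p = 0.187), and when only the arrays of both groups were fitted (adjusted p = 0.116). Against Control-UVR the difference was 1.20 (SE 0.40, adjusted p = 0.26, limma) and was not called. Without Organic-UVR replicate 1, which is in neither group but widens the shared estimate of spread, the same difference had an adjusted p of 0.0919. It was also called with only the arrays of both groups (adjusted p = 0.0307), with array weights (1.05, adjusted p = 0.0673) and with the array slope as a covariate (1.55, adjusted p = 0.00849). Of all transcripts, 1.07% did not overlap between TiO2+UVR and Control-UVR, against 2 of the 8 genes, and 0.734% did not overlap between TiO2+UVR and TiO2-UVR, against 1 of the 8.

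Lpin1 was also high in Organic-UVR outside replicate 1. The other 5 livers measured 8.97 ± 0.36 (SD, n = 5), all from 8.37 to 9.34. With replicate 1, at 6.44, the group overlapped with Control-UVR. The difference from Control-UVR was 0.79 (SE 0.40, adjusted p = 0.27, limma) with replicate 1 and 1.26 (SE 0.36, adjusted p = 0.124) without it, and neither passed the threshold. In ZnO-UVR, 2 livers stood high, replicates 1 (9.61) and 2 (9.13), and the other 4 lay from 7.23 to 8.15. Organic+UVR spread from 7.32 to 9.34. The order of the means ran from TiO2+UVR to TiO2-UVR for Lpin1 as well, with a largest step of 0.41 against an SD within groups of 0.724.

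The glucose-releasing enzyme gene G6pc was lower on average over the 4 groups given a product with organic filters than over the 4 without. The log2 difference was -0.80 (SE 0.23, adjusted p = 0.0489, limma), which is 0.575 of the level. With each array left out in turn it stayed between -0.88 and -0.66 and was always called, and without Organic-UVR replicate 1 it was -0.66 (SE 0.19, adjusted p = 0.0663). With the array slope as a covariate it was -0.50 (adjusted p = 0.253) and no longer called. Ppp1r3g was the other member called, at 0.33 (SE 0.10, adjusted p = 0.061, limma), a call lost without ZnO-UVR replicate 6 (adjusted p = 0.102) and without the replicate block (0.31, adjusted p = 0.138). These 2 of 8 genes compare with 4.94% of all transcripts called in this comparison. Pygl (-0.22, adjusted p = 0.107), Igfbp1 (-0.45, adjusted p = 0.174) and Lpin1 (0.40, adjusted p = 0.265) were not called by limma, and Fbp1, Ugp2 and Gcgr differed by -0.06, 0.01 and -0.10. In the same comparison 1 of 3 measured bile duct markers, Sox9, fell by 0.24 (adjusted p = 0.0834, limma) and 1 of 3 endothelial markers, Pecam1, fell by 0.28 (adjusted p = 0.0831). The other bile duct markers did not fall: the median difference of the 3 was 0.08. For the 3 endothelial markers the median difference was -0.03. The mean level of the 3 bile duct markers ran from 4.622 to 5.347 in the groups with organic filters and from 4.725 to 5.155 in those without, and that of the 3 endothelial markers from 5.56 to 6.447 and from 5.838 to 6.726. Their part in the G6pc and Ppp1r3g differences was not tested.

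The groups behind the G6pc difference were not all alike. TiO2-UVR, a group with organic filters, had a mean of 10.3, above ZnO-UVR (10.19) and Control-UVR (9.93). The highest means, 10.9 each, were those of Control+UVR and ZnO+UVR, and no group with organic filters was called against Control-UVR. Control+UVR had livers from 9.89 to 11.85 with a median of 10.97, and ZnO+UVR from 9.90 to 11.33 with a median of 11.05. Control-UVR spanned 8.49 to 10.78 (median 10.08) and ZnO-UVR 9.49 to 10.90 (median 10.22). TiO2-UVR was the tightest group, from 9.96 to 10.69 around 10.24. TiO2+UVR (8.06 to 10.37, median 10.01), Organic-UVR (6.59 to 10.57, median 9.82) and Organic+UVR (8.34 to 10.27, median 9.81) had the lowest medians. Low livers were not confined to them, as Control-UVR had 1 at 8.49. Every group overlapped with Control-UVR. The fitted differences of Control+UVR and ZnO+UVR from Control-UVR were 0.98 (SE 0.44, adjusted p = 0.34, limma) and 1.03 (SE 0.47, adjusted p = 1, limma), so neither was called. The largest step in the order of means, 0.6 from ZnO+UVR to TiO2-UVR, was below the SD within groups of 0.842.

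Igfbp1, the insulin-repressed binding protein gene, was highest in the UVR groups without organic filters. In Control+UVR it measured 7.44 at the lowest, 8.75 at the median and 10.29 at the highest, and in Control-UVR 5.91, 7.95 and 8.39. In ZnO+UVR the values were 8.09, 8.71 and 9.15, and in ZnO-UVR 6.84, 7.31 and 7.95. All 5 ZnO+UVR livers lay above all 6 ZnO-UVR livers, which held for 0.214% of all transcripts. In TiO2+UVR (7.11 to 8.57, median 7.55) it was no higher than in TiO2-UVR (7.45 to 8.65, median 8.16). Organic-UVR ran from 5.82 to 8.36 and Organic+UVR from 7.11 to 8.45.

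None of the pairwise differences of Igfbp1 was called by limma, although the F test among the 8 groups was. It was 1.11 (SE 0.36, adjusted p = 0.265) in Control+UVR against Control-UVR, a 2.16-fold difference. It was 1.29 (SE 0.39, adjusted p = 1) in ZnO+UVR against ZnO-UVR, a comparison chosen after the values were seen. Averaged over sunscreens, UVR against no UVR gave 0.58 (SE 0.19, adjusted p = 0.632). Within the other products the UVR difference was -0.48 (SE 0.36) with TiO2 and 0.41 (SE 0.36) with the organic product.

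Whether the UVR difference depended on the sunscreen was tested with the interaction, and 0 of 8 genes were called, with 0.387% of all transcripts called. At an unadjusted p under 0.05 there were 3 of the 8 genes, Ppp1r3g (adjusted p = 0.121, limma), Lpin1 (adjusted p = 0.184) and Igfbp1 (adjusted p = 0.425), where 6.67% of all transcripts passed that level. Without Organic-UVR replicate 1 the interaction was called for Lpin1 (adjusted p = 0.00885, limma) and Ppp1r3g (adjusted p = 0.0559) and not for Igfbp1 (adjusted p = 0.18).

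For G6pc and Igfbp1, which share the FOXO-dependent repression by insulin, the 250 bases before the transcription start are shown, as given in the RefSeq promoter table (GRCm38.p6). Capitals mark the insulin response letters CAAAACA or their reverse complement, and in G6pc also the TATA letters TATAAA.
G6pc, chr11:101367466-101367715, plus strand: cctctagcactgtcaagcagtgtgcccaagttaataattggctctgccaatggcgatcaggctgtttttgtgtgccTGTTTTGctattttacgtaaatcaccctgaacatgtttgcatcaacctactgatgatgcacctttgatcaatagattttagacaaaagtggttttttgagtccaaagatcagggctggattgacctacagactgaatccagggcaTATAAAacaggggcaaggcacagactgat
Igfbp1, chr11:7197537-7197786, plus strand: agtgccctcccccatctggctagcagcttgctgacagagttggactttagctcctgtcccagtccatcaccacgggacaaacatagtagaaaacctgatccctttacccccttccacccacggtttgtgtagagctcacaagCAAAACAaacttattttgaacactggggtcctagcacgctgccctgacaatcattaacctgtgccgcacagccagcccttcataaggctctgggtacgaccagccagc
The CAAAACA match of G6pc lies on the reverse strand, 174 bases before the start, and that of Igfbp1 on the forward strand, 108 bases before it. Over 32851 promoter windows of the same length, 5.56% hold CAAAACA on either strand and 12.4% TATAAA. All 8 genes matched the table, in 9 windows since Ugp2 has 2. Of the other letters searched on both strands, the cyclic AMP half-site TGACGT (in 6.47% of all windows) was found in Ppp1r3g, 40 bases before the start, while the full site TGACGTCA (1.55%), which contains it, the FOXO letters GTAAACA (3.17%), the E-box CACGTG (6.02%) and the D-box TTATGTAA (0.819%) matched none of the 9 windows. A match is a description of the letters and not a measured site.

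Among the genes of glycogen breakdown and glucagon signalling, Pygl was called in Organic-UVR and Gcgr in no comparison. Pygl measured 9.18 at the lowest, 10.55 at the median and 10.84 at the highest in Organic-UVR, and 10.70, 10.81 and 11.06 in Control-UVR. It fell by 0.47 on the log2 scale (SE 0.15, adjusted p = 0.0943, limma), the only 1 of 8 members called in Organic-UVR, where 3.27% of all transcripts were called. The bile duct marker Krt7 was also called there, higher by 0.57 (SE 0.11, adjusted p = 0.00641, limma), 1 of 3 such markers measured, whose mean level ran from 4.755 to 5.347 in Organic-UVR and from 4.725 to 5.062 in Control-UVR, and its part in the Pygl difference was not tested. The call rested on replicate 1: without that array the difference was -0.28 (SE 0.13, adjusted p = 0.491), and it was lost with 24 of the 47 arrays left out in turn. In the other groups the mean of Pygl ran from 10.61 in TiO2+UVR to 10.88 in ZnO+UVR.

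Gcgr had group means from 8.49 in Organic+UVR to 8.77 in ZnO+UVR, a range of 0.278 against an SD within groups of 0.512. Its spread differed between groups on inspection, from 8.39 to 8.76 in Control-UVR and from 7.25 to 9.23 in Control+UVR. The low end of Control+UVR was a single liver, replicate 1.

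Fbp1, of new glucose formation, and Ugp2, of glycogen building, were not called in any comparison. Fbp1 had means from 10.17 in Organic-UVR to 10.61 in Control+UVR, with an SD within groups of 0.367, and Ugp2 from 9.88 in Organic-UVR to 10.15 in Organic+UVR, with an SD of 0.247. Their intervals bound the change: in Control+UVR against Control-UVR the 95% interval of Fbp1 ran from -0.01 to 0.64 and that of Ugp2 from -0.43 to 0.15.

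**Figure D2:**
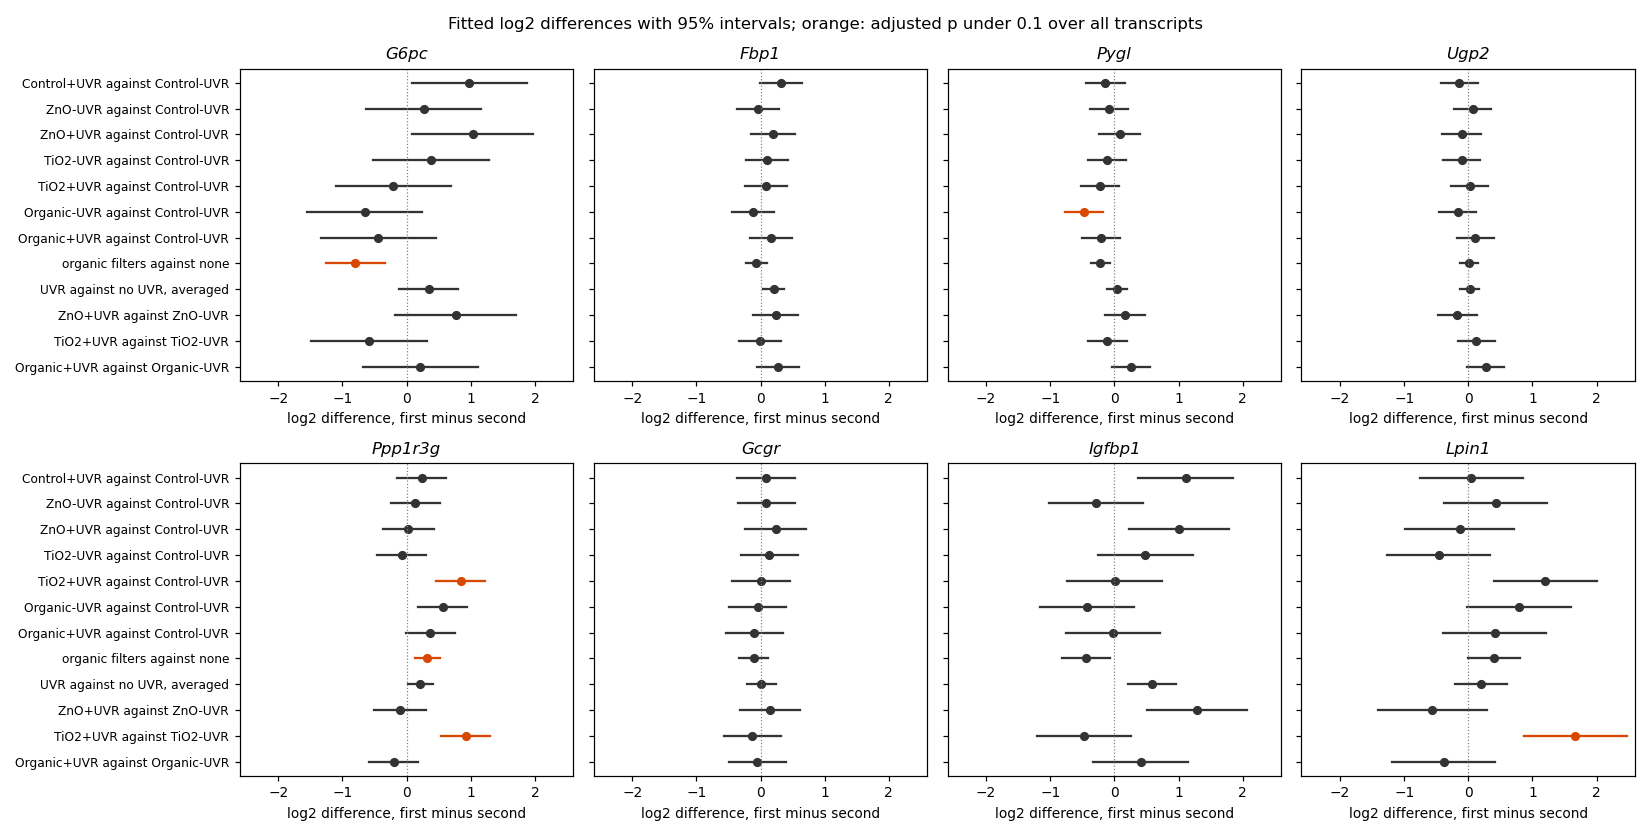
Fitted log2 difference (horizontal axis, first group minus second) with its 95% interval for each gene in 12 comparisons (vertical axis); orange marks an adjusted p under 0.1. The 6 orange points are G6pc and Ppp1r3g for organic filters, Pygl in Organic-UVR, Ppp1r3g in TiO2+UVR, and Ppp1r3g and Lpin1 in TiO2+UVR against TiO2-UVR.

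In the comparisons not yet listed no member was called. The share of all transcripts called was 0.0509% in Control+UVR against Control-UVR, 1.65% in Organic+UVR against Control-UVR, and 0% in ZnO-UVR, ZnO+UVR and TiO2-UVR against Control-UVR, in UVR averaged over sunscreens, in ZnO+UVR against ZnO-UVR and in Organic+UVR against Organic-UVR. At an unadjusted p under 0.05 in limma, 2 of 8 members were found in Control+UVR (12.8% of all transcripts), 2 in ZnO+UVR (2.81%), 3 for UVR averaged over sunscreens (6.8%), 1 in ZnO+UVR against ZnO-UVR (2.19%) and 0 in ZnO-UVR, TiO2-UVR, Organic+UVR against Control-UVR and Organic+UVR against Organic-UVR. The comparisons with Control-UVR share those 6 control arrays.

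Other genes of the same pathways were called in 4 comparisons. With organic filters 3 of 44 were called, or 6.82%, against 4.94% of all transcripts, and in TiO2+UVR, Organic-UVR and TiO2+UVR against TiO2-UVR 1 of 44 each, or 2.27%. The table held 11 of 26 listed gluconeogenesis genes, 11 of 33 glycolysis genes, 9 of 32 glycogen genes and 21 of 51 fasting signal genes, members included. Of 9 other measured gluconeogenesis genes, 1 was called: Gpd1, the cytosolic glycerol-3-phosphate dehydrogenase that brings glycerol into glucose formation, fell with organic filters by 0.49 on the log2 scale (SE 0.12, adjusted p = 0.0251, limma). The median of those 9 genes in that comparison was -0.09, against 0.02 over all transcripts. None of 11 measured glycolysis genes and none of 6 other glycogen genes was called in any comparison. Of 18 other fasting signal genes, Per1 and Foxo3 were called. Per1, a clock gene that responds to glucocorticoids and cyclic AMP, rose by 0.74 in TiO2+UVR (adjusted p = 0.0753, limma), by 0.81 in Organic-UVR (adjusted p = 0.0283) and by 0.93 in TiO2+UVR against TiO2-UVR (adjusted p = 0.0084). With organic filters Per1 rose by 0.41 (adjusted p = 0.0174, limma) and the FOXO factor gene Foxo3 by 0.21 (adjusted p = 0.0898).

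From liver to liver within groups, 3 of the genes were among the most variable transcripts measured. The SD within groups was 0.842 for G6pc, 0.691 for Igfbp1 and 0.724 for Lpin1 on the log2 scale, above that of 99.8%, 99.3% and 99.5% of all transcripts, whose median was 0.266. Gcgr (0.512) lay above 96.2% of transcripts, while Ppp1r3g (0.377), Fbp1 (0.367), Pygl (0.315) and Ugp2 (0.247) were nearer to the median. Without Organic-UVR replicate 1 the SD was 0.708 for G6pc and 0.631 for Lpin1.

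The level of several of the 8 genes moved with the slope of the array. After removing group means, the level correlated with the slope at r = 0.884 for Pygl, 0.717 for Gcgr, 0.68 for Fbp1, 0.642 for G6pc, 0.611 for Lpin1, 0.469 for Igfbp1 and 0.468 for Ugp2 over 47 livers. Without Organic-UVR replicate 1 these were 0.784, 0.702, 0.488, 0.419, 0.409, 0.326 and 0.216. For Ppp1r3g r was 0.0427. A change of slope moves transcripts of middle level least, and Ppp1r3g had a mean level of 5.76 against a median of 5.24 for all transcripts. These are descriptions, since the slope is computed from the same arrays, and the part of the slope in the results was not tested apart from its use as a covariate.

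**Figure D3:**
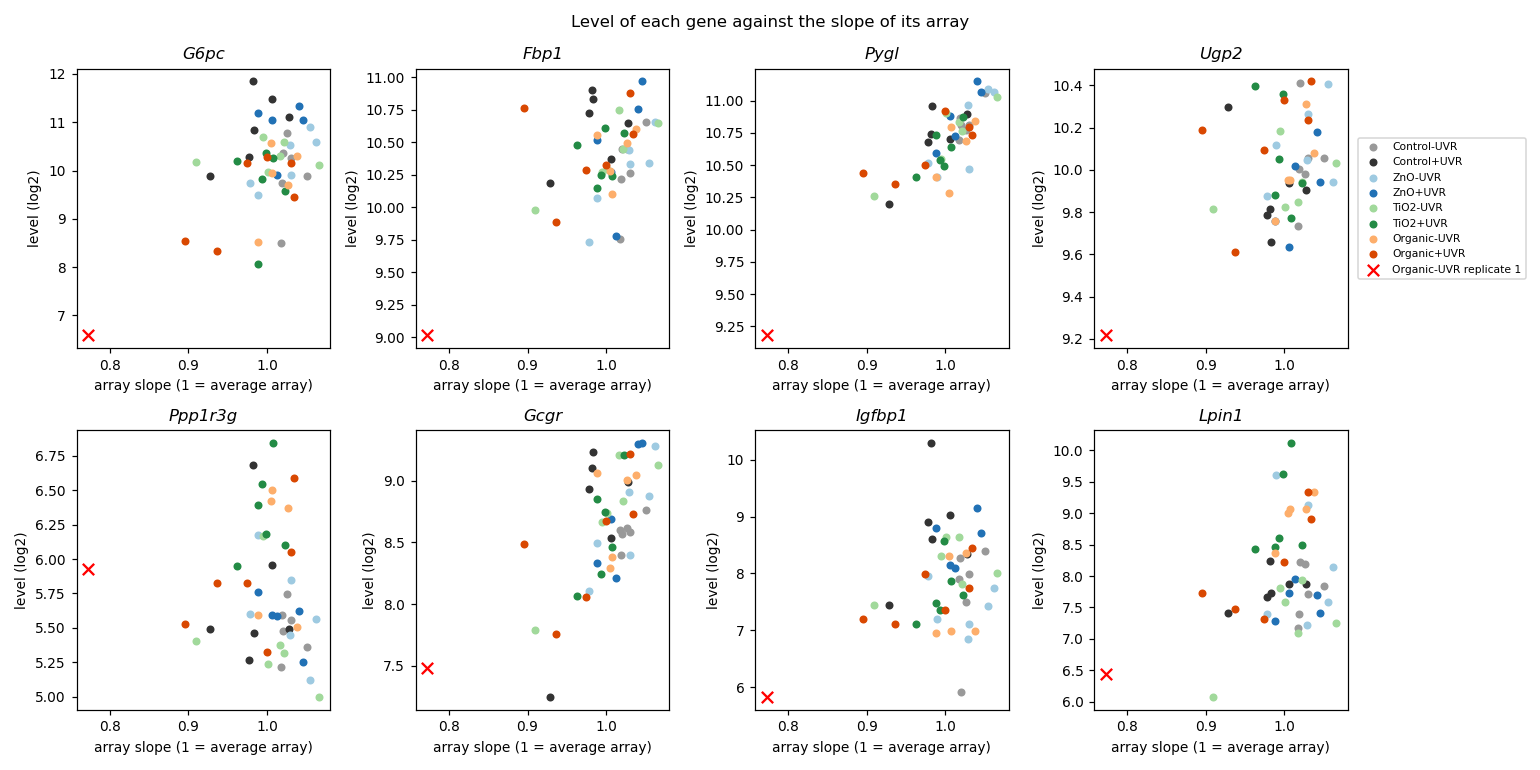
Log2 level of each gene (vertical axis) against the slope of its array on the mean of all arrays (horizontal axis) for 47 livers, coloured by group; the red cross is Organic-UVR replicate 1 with a slope of 0.772. Pygl and Gcgr climb with the slope also among the other 46 arrays (r = 0.784 and 0.702 after removing group means), and Ppp1r3g shows no such climb (r = 0.0427 with all arrays).

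The covariation of the 8 genes was measured as the correlation of group-centred levels over the 47 livers, for 28 pairs among themselves and 80 pairs with 10 measured clock genes. p-values came from 100000 permutations within groups and were adjusted over these 108 pairs. Of the 28 member pairs 19 were called by Pearson's r, all positive, and 9 by Spearman's rho. Such correlations were common on these arrays: 47.3% of the pairs between the 8 genes and every other transcript had an r at least as large in size as the weakest called pair, 0.276. Without Organic-UVR replicate 1, 6 of the 28 pairs were called, or 21.4%, where 20.2% of all such pairs reached the weakest r called there, 0.354.

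The 6 pairs called without that array, close in share to all such pairs, are listed here, and a grouping of the genes was not tested. Fbp1, Pygl and Gcgr were paired with each other, and G6pc with Fbp1. Pygl and Gcgr correlated at r = 0.796 (rho = 0.787, adjusted permutation p = 0.00036 for each), and at r = 0.795 without Organic-UVR replicate 1. Without the 2 livers farthest from the median of Pygl r was 0.76, and within the 6 replicate numbers it was positive in 6 of 6. Fbp1 and Gcgr correlated at r = 0.787 (rho = 0.782, adjusted permutation p = 0.00036), at 0.755 without that array and at 0.742 without the 2 farthest livers. Of all transcripts 2.14% were as strongly correlated with Pygl as Gcgr was, and 1.51% with Fbp1 as Gcgr was. Without Organic-UVR replicate 1 these shares were 0.55% and 1.45%. In that setting 10.3% were as strongly correlated with Fbp1 as Pygl was, and 3.36% with G6pc as Fbp1 was. With the array slope as a covariate Pygl with Gcgr and Fbp1 with Gcgr remained called, at r = 0.498 and 0.585. Fbp1 with Pygl fell from r = 0.703 to 0.296 under that covariate (adjusted permutation p = 0.173), and G6pc with Fbp1 from 0.606 to 0.302 (adjusted permutation p = 0.15).

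The other called pairs were Ppp1r3g with Lpin1 and with Igfbp1. Ppp1r3g and Lpin1 correlated at r = 0.44 (rho = 0.449, raw permutation p = 0.00527, adjusted p = 0.031), at 0.479 without Organic-UVR replicate 1 and at 0.524 with the slope as a covariate. The correlation was 0.397 without the 2 livers farthest from the median of Ppp1r3g (adjusted permutation p = 0.136), so its call rests on those livers. Ppp1r3g and Igfbp1 correlated at r = 0.385 (rho = 0.329, adjusted permutation p = 0.0568), and at 0.252 without the 2 farthest livers (adjusted permutation p = 0.315). Of all transcripts, 1.94% were as strongly correlated with Ppp1r3g as Lpin1 was. Without Organic-UVR replicate 1 the share was 1.43% for Lpin1 and 6.27% for Igfbp1. G6pc and Igfbp1, the pair with the shared insulin response letters, correlated at r = 0.412 (rho = 0.297, adjusted permutation p = 0.0569) with all livers and at 0.274 (adjusted permutation p = 0.249) without Organic-UVR replicate 1.

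**Figure D4:**
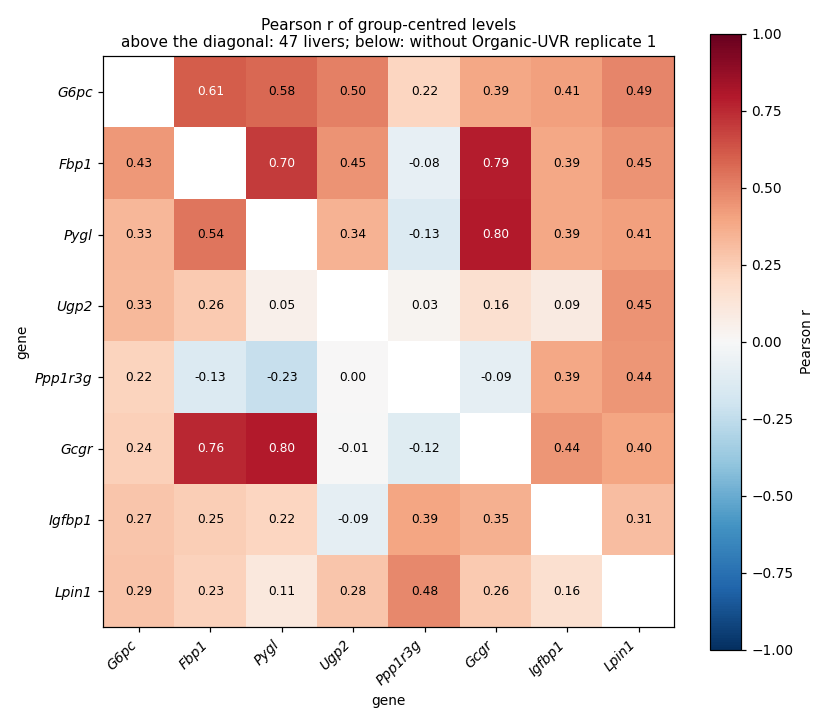
Pearson r of group-centred log2 levels for each pair of genes, above the diagonal over 47 livers and below it without Organic-UVR replicate 1 (colour scale from -1 to 1). Pygl with Gcgr (0.796 and 0.795) and Fbp1 with Gcgr (0.787 and 0.755) are strong on both sides, while G6pc with Lpin1 goes from 0.49 to 0.288.

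Lpin1 and Ppp1r3g also moved with clock genes from liver to liver. Leaving out Npas2, whose values fell into clusters, Lpin1 was correlated with 6 of 9 clock genes and Ppp1r3g with 7 of 9, and without Organic-UVR replicate 1 with 7 and 6. Over all transcripts, 47.5% reached the weakest called r with Lpin1 and 16.5% with Ppp1r3g, and without that array 10.1% and 9.89%. Ppp1r3g with Nfil3 was negative (r = -0.329). Lpin1 with Nfil3 was negative too, at r = -0.197 and not called over 47 livers. Without Organic-UVR replicate 1 it was called, at r = -0.383 (adjusted permutation p = 0.0587). With the replicate block removed from the levels, Nfil3, Per2 and Hlf were not called with Ppp1r3g. Their r was then -0.0107 (adjusted permutation p = 0.965), 0.226 (adjusted permutation p = 0.216) and 0.29 (adjusted permutation p = 0.176). In livers without UVR Ppp1r3g had r = 0.587 with Per1 and 0.535 with Ciart, and in livers with UVR 0.485 and 0.24. Lpin1 and the clock repressor gene Ciart correlated at r = 0.689 (rho = 0.636, adjusted permutation p = 0.00108), at 0.656 without that array and at 0.778 without the 2 livers farthest from the median of Lpin1. Of all transcripts 0.438% were as strongly correlated with Lpin1. Of the other members, Ugp2 was called with 5 of 9 clock genes, Fbp1 with 3, G6pc, Pygl and Gcgr with 2 each and Igfbp1 with 1. The share of all transcripts that reached the weakest called r was 43.9% with Ugp2, 56.7% with Fbp1 and 51.7% with G6pc. It was 69.8% with Pygl, 60.9% with Gcgr and 31.5% with Igfbp1. Without Organic-UVR replicate 1 G6pc, Fbp1 and Ugp2 were called with 0 of 9 and Pygl, Gcgr and Igfbp1 with 1 of 9 each, where 4.69% (Igfbp1) to 42.7% (Pygl) of all transcripts reached the weakest called r. In the group comparison Ciart differed by 2.86 and Npas2 by -2.12 in TiO2+UVR against TiO2-UVR (adjusted p = 0.00252 and 0.00177, limma), where Ppp1r3g and Lpin1 were called.

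**Figure D5:**
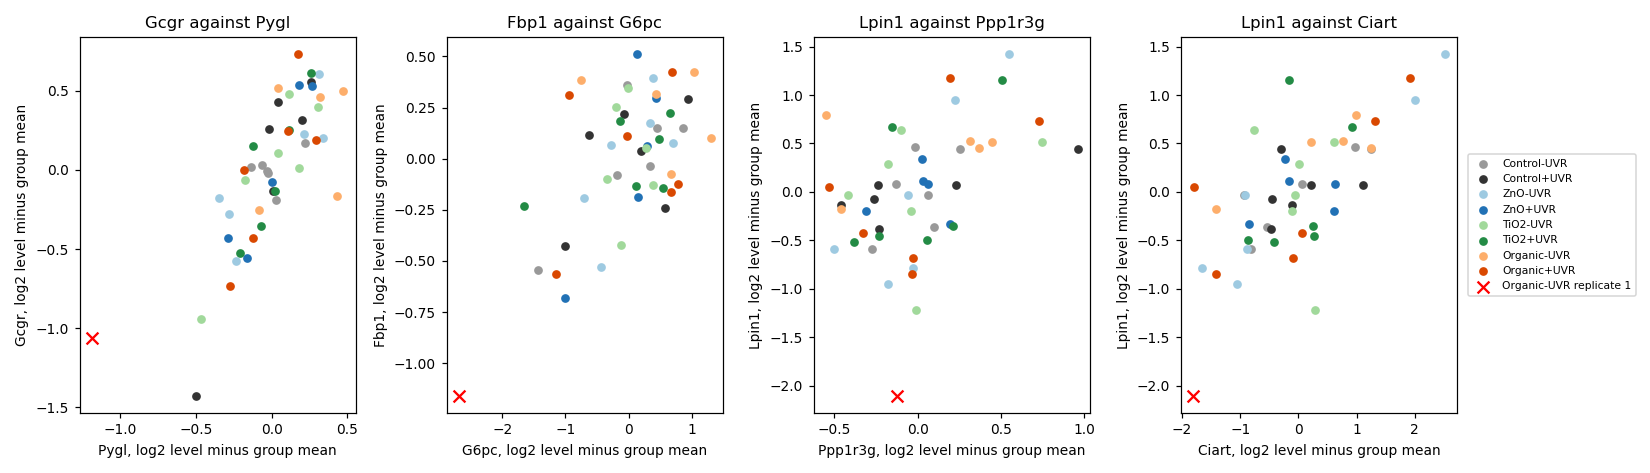
Log2 level minus group mean for 4 gene pairs in 47 livers, coloured by group, with Organic-UVR replicate 1 as a red cross. Gcgr follows Pygl (r = 0.796) and Lpin1 follows Ciart (r = 0.689) across the range, while for Fbp1 against G6pc (r = 0.606 with all livers, 0.43 without the cross) the cross lies far from the other livers.

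The transcripts most like each gene in group-centred level were, over 47 livers, Slc25a3 (r = 0.73) and Gsdma2 (-0.70) for G6pc, Mettl7b (0.92) and Mtarc1 (0.90) for Fbp1, Dmgdh (0.93) and Eif3l (0.91) for Pygl, and Atp5g1 (0.92) and Slc25a39 (0.92) for Gcgr. For Ugp2 they were Chac2 (r = 0.81) and Eif4a2 (0.81). For Ppp1r3g they were Slc38a2 (r = 0.68) and F2rl2 (0.67), for Igfbp1 Gabra6 (-0.60) and Cacnb1 (-0.60), and for Lpin1 Ppara (0.79) and Map3k5 (0.77). Ppara encodes the receptor that turns on fatty acid oxidation in fasting. It stayed the most like Lpin1 without Organic-UVR replicate 1 (r = 0.73), as Slc38a2 stayed for Ppp1r3g (r = 0.73).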

How the data were processed

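Each of the 47 livers, in 8 groups, had its RNA hybridised to 1 Affymetrix array. The values are deposited on the log2 scale, after RMA normalization by the authors. Chips were run in batches holding 1 chip per group and batch effects were removed; whether the deposited values had this step is not given in the sources used here. Of 16383 probesets, 6568 control probesets were left out, and the 9815 transcripts left are a part of the array. Symbols came from the platform annotation, and the brightest probeset stood for a gene.

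limma 3.58.1 (R 4.3.3) fitted all groups and, as a block, the labels' replicate number (34 residual degrees of freedom), and p-values were adjusted by Benjamini-Hochberg over all transcripts. Whether this number stands for a processing batch is not given in the labels. Correlations used values centred on group means. No 2 arrays were duplicates (highest correlation 0.9936). Scripts were tested on simulated data.

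The members, gene lists and tests were chosen with earlier results of these data known, and the comparisons of +UVR with -UVR within a product and the correlation background were added after the values were seen. Named genes are all members, called genes of 4 lists, the 2 most like transcripts per member, and the clock genes Npas2 and Ciart beside them. The clock genes Per2, Hlf and Nfil3 are named where Ppp1r3g lost a call with them, and Nfil3 also where a called r with it was negative. Alternatives were no replicate block, the compared groups alone, quantile normalization, a filter on dim transcripts, array weights, the array slope as a covariate, an adjusted p under 0.05, and leaving out each array. Each array is 1 mouse, and the number of arrays limits the precision.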

Additional observations from a re-analysis of the deposited data

Results flagged for a closer look

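In 9 of 64 combinations of gene and group 1 liver lay far from the others of its group (Dixon's ratio above its 95% critical value). Chance flags about 1 in 20. Organic-UVR replicate 1 was low for Fbp1 (9.02, nearest other liver 10.10), Pygl (9.18, nearest 10.29) and Lpin1 (6.44, nearest 8.37), on the array with the lowest slope. Control+UVR replicate 1 was low for Pygl (10.20, nearest 10.68) and Gcgr (7.25, nearest 8.54), and its array had a slope of 0.928. G6pc was low in ZnO+UVR replicate 3 (9.90, nearest 11.04) and in TiO2+UVR replicate 3 (8.06, nearest 9.58). Igfbp1 was low in Control-UVR replicate 5 (5.91, nearest 7.50), and Ppp1r3g was high in TiO2-UVR replicate 2 (6.16, nearest 5.41).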

How the results depend on the processing

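Each of the 8 genes was called or not called anew under each alternative, and the counts below are of these 8. The share of all transcripts called under each alternative is not given here. A higher or lower count is therefore not a result about these genes. Without the replicate block 0 genes were called in Organic-UVR and 1 for organic filters, against 1 and 2 with it, and no other count moved by over 1.5 times. The replicate numbers showed pairing in part but not throughout. Of 161 pairs of arrays with the same number 103 had a correlation of deviations over 0.1 (median 0.1455, lowest -0.5079). The median for pairs with different numbers was -0.03177, and 20 of 47 arrays were closest to their own number. With quantile normalization, which shifted the median of all transcripts by at most 0.052, the counts were 0 in Organic-UVR and 1 for the interaction. With array weights they were 1 in Control+UVR, 2 in TiO2+UVR, 3 in Organic-UVR, 4 for organic filters, 1 for UVR averaged over sunscreens, 1 in ZnO+UVR against ZnO-UVR, 4 among the 8 groups and 3 for the interaction. With the array slope as a covariate they were 2 in TiO2+UVR, 5 among the 8 groups and 2 for the interaction. With the filter on dim transcripts they were 2 in Organic-UVR, 4 among the 8 groups and 1 for the interaction. With the compared groups alone they were 2 in TiO2+UVR, 0 in Organic-UVR and 1 in TiO2+UVR against TiO2-UVR. At an adjusted p under 0.05 they were 0 in Organic-UVR and 1 for organic filters. Leaving out 1 array at a time gave 0 to 2 in TiO2+UVR, 0 to 2 in Organic-UVR, 1 to 4 for organic filters, 1 to 2 in TiO2+UVR against TiO2-UVR and 0 to 2 for the interaction. The causes were not tested.

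Of the 28 pairs 19 were called, 20 with the replicate block, 15 without centring, 8 with quantile normalization, 4 with the array slope as a covariate, 6 without Organic-UVR replicate 1 and 5 without the 2 arrays farthest from the median of the first gene. Among pairs called either in the reported setting or in the alternative named, the sign changed for Igfbp1 with Lpin1 without centring (r = -0.0397), Fbp1 with Ppp1r3g with the replicate block (0.359), Fbp1 with Ugp2 (-0.122), Pygl with Ugp2 (-0.382) and Ugp2 with Gcgr (-0.457) with quantile normalization, and G6pc with Gcgr (-0.141), Pygl with Igfbp1 (-0.0625) and Gcgr with Lpin1 (-0.0753) with the slope. The cause was not tested. Averaging several probesets of a gene was not run, since each gene had 1.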
